A study of Homo sapiens with 6 samples.

Results

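Chromatin regulator genes encode the enzymes and subunits that write, erase, read and reposition the marks and nucleosomes of chromatin. They were taken here as the protein-coding genes of RefSeq (hg38) whose symbols start with KDM, KMT, SETD, KAT, HDAC, BRD, ARID, CHD or SMARC, with a digit after the prefix except for SETD and SMARC. KDM4C was left out by the rule. On chromosomes 1 to 22 and X this gave 100 genes of 19974 protein-coding genes. A GSX2 peak belonged to one of them where its strongest summit had that gene as the nearest protein-coding span, and overlapping peaks of the 3 replicates were merged into regions. The genes were nearest to 69, 55 and 63 peaks of replicates 1, 2 and 3, of 9859, 7471 and 9122 in all, and these merged into 107 of the 15743 regions of the series.

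The peaks come from chromatin immunoprecipitation and sequencing of GSX2, a homeodomain transcription factor of lateral ganglionic eminence progenitors, in H9, an established line of human embryonic stem cells. All samples carried the same transgene, 2xFLAG-GSX2 WT under the doxycycline-responsive TRE3G promoter, so the protein measured was tagged and induced. Cells were differentiated toward an LGE-like state, given 100 ng/mL doxycycline for 12 hours from day 10, and taken on day 10.5 for precipitation with the M2 antibody against FLAG. The labels list 3 ChIP samples and 3 samples of input. Peak lists of the ChIP samples are the only values used, so there is 1 group, no contrast between conditions and no precipitation without the transgene. The lists hold no expression values, against which the labelled cell state could be checked, and no read counts, so sequencing depth is unknown and a missing peak can reflect depth. Replicates are numbered in the labels without a statement that they were separate cultures, so their spread may be partly technical.

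As background, histone tails carry methyl and acetyl groups. Methyltransferases of the KMT and SETD classes add methyl groups and demethylases of the KDM class remove them. Acetyltransferases of the KAT class and deacetylases of the HDAC class do the same for acetyl groups, bromodomain proteins of the BRD class bind acetylated lysines, and remodellers of the CHD class and of the SMARC and ARID subunits of the BAF complexes move nucleosomes with energy from ATP. Mutations in many of these genes cause disorders of brain development.

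Of the 100 genes, 23 were nearest to at least 1 region held by all 3 replicates (23%, 95% Wilson interval 15.8 to 32.2%), against 12.5% of all protein-coding genes. Another 22 had regions of 1 or 2 replicates only and 55 had none. With regions of any replicate counted, 45 of 100 genes had one, against 33.1% of all protein-coding genes. The 23 include the readthrough gene SETDB2-PHF11, which shares its region with SETDB2, so they stand for 22 loci. The symbol rule also takes in CHD9NB, a neighbour gene of CHD9, and BRD3OS, an opposite-strand gene at BRD3, which bear the prefixes but are not known as a remodeller or a bromodomain gene, and neither had a shared region. Of the 23 genes, 18 had 1 shared region, 4 had 2 (ARID5B, BRD1, CHD2 and KDM4B) and KMT2E had 3. No chance test was made of these counts.

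Long genes with long intergenic flanks gather more regions, and these genes are longer than most. Their median span was 55.0 kb against 24.2 kb over all protein-coding genes, and their median territory, meaning all positions to which a gene is nearest, was 86.9 kb against 56.3 kb. Among genes with a territory under 50 kb, 1 of 33 chromatin regulators had a shared region, against 2.46% of the other genes. At 50 to 100 kb, 7 of 25 had one (28.0%) against 7.42%, with SETDB2 and SETDB2-PHF11, which share 1 region, both among the 7. At 100 to 200 kb the shares were 4 of 18 (22.2%) against 16.2%, and at 200 kb and over 11 of 24 (45.8%) against 40.6%. Per 10 Mb of territory, the 100 genes had 17.0 shared regions and the other genes 11.5. Within the set, the genes with a shared region had a median territory of 189 kb and those without one 73.0 kb.

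**Figure D1:**
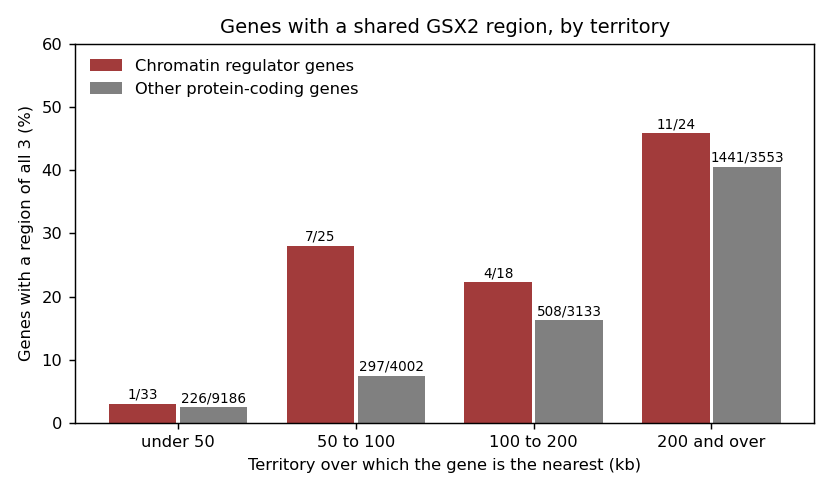
Share of genes with at least 1 GSX2 region held by all 3 replicates (y axis, %) by the territory over which the gene is the nearest protein-coding gene (x axis, kb), with the number of genes over each bar; the bars have no error and no test. The chromatin regulators stand at 28.0% against 7.42% at 50 to 100 kb, where the 7 genes count the SETDB2 region under 2 symbols, and the bars of both sets are nearly level under 50 kb.

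Of the 107 regions, 28 had peaks from all 3 replicates (26.2%, 95% Wilson interval 18.8 to 35.2%), against 22.4% for the other genes. The remaining ones were 22 of 2 replicates and 57 of 1, of which 25 were in replicate 1, 13 in replicate 2 and 19 in replicate 3. Fold enrichment is the value that the authors' peak caller gave each peak over its background, and its median was 7.46, 7.84 and 7.37 in replicates 1, 2 and 3, against 7.15, 7.73 and 7.48 for peaks of the other genes. The means of these medians, 7.56 ± 0.25 and 7.45 ± 0.29 (SD, n = 3), differed by less than either SD, while in replicate 1 alone the gap was wider than both. Over the 28 shared regions the median of the mean fold enrichment was 9.15, with a range of 4.77 to 22.1, and it was 9.50 over the 3509 shared regions of the other genes. Replicate 1 was the highest of the 3 in 9 of the 28 regions, replicate 2 in 11 and replicate 3 in 8. The summits of the 3 replicates lay within a median of 34 bp of each other in a region, from 4 to 167 bp.

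**Figure D2:**
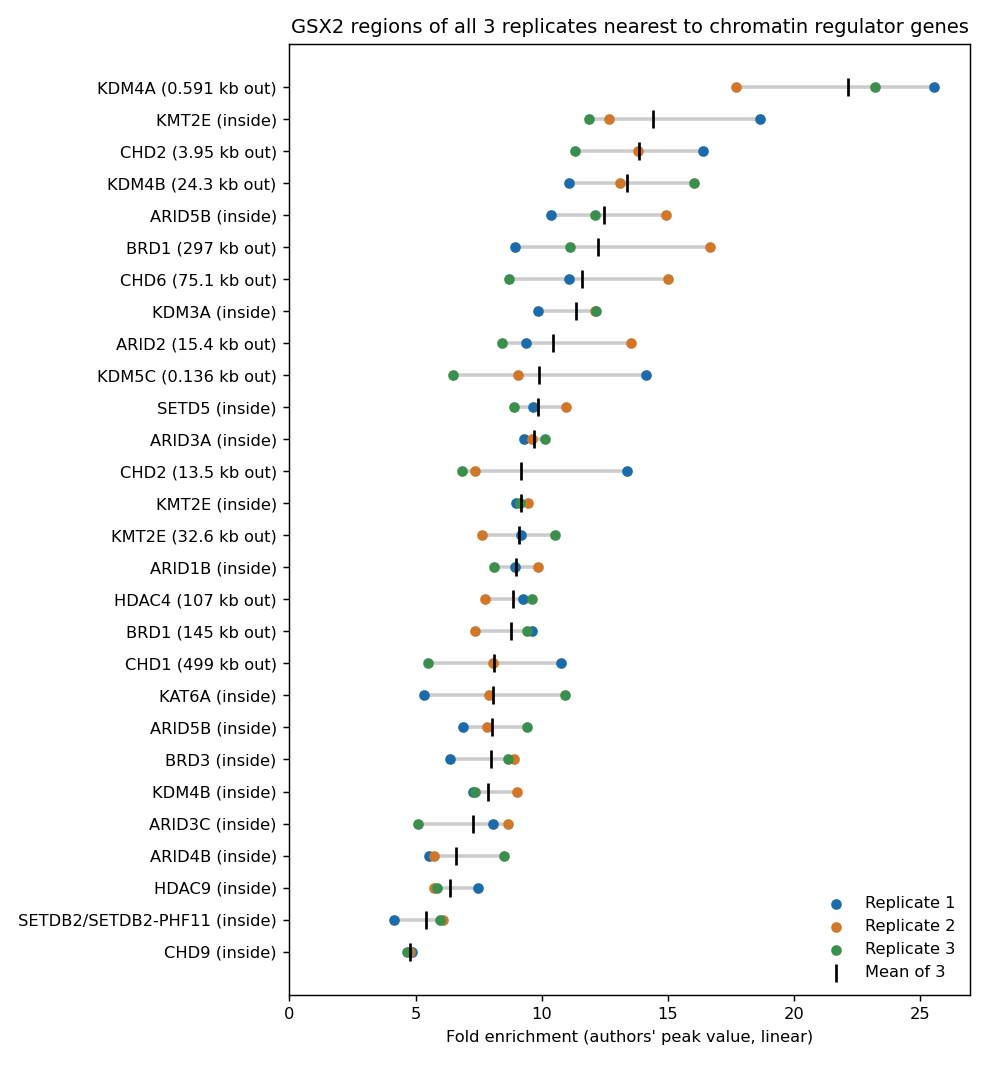
Fold enrichment (x axis, the authors' linear peak value) of the 28 GSX2 regions held by all 3 replicates, 1 row per region labelled with its nearest gene and its distance outside the gene span, where it is outside; colours mark the replicates, black ticks the mean of 3 and grey lines the range. KDM4A stands highest with 17.7 to 25.5-fold, and the ranges of most other rows overlap their neighbours.

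Demethylase genes of the KDM class held the strongest region of the set. Of 18 KDM genes, 4 had a shared region (22.2%), against 12.5% of all protein-coding genes. Another 5 had regions of 1 or 2 replicates only. With regions of any replicate counted, 9 of 18 had one, against 33.1% of all protein-coding genes. The 5 shared regions had a median of 11.4-fold. The highest lay 591 bp upstream of the start of KDM4A, a demethylase of repressive histone H3 methylation (chr1:43649357-43649871, hg38, between genes). It reached 25.5-fold in replicate 1, 17.7-fold in replicate 2 and 23.2-fold in replicate 3 (22.1 ± 4.0, SD, n = 3). In every replicate it stood above 96.7% or more of all peaks, and it was the 105th of 3537 shared regions by mean fold enrichment. Its lowest replicate was above the highest replicate of all but 1 of the other 27 regions, that of KMT2E. KDM4A was also nearest to no other region in any replicate.

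KDM4B, a close relative of KDM4A, had 2 shared regions. One lay 24.3 kb past its far end (chr19:5177708-5178133), where the lncRNA gene PTPRS-AS1 holds the summit, at 11.1, 13.1 and 16.0-fold in replicates 1, 2 and 3 (13.4 ± 2.5). The other lay inside the gene, 77.5 kb from its start (chr19:5046422-5046764), at 7.28, 9.01 and 7.37-fold (7.89 ± 0.98). The 2 ranges do not overlap. A further region, 1.54 kb inside its start (chr19:4970577-4970812), was held by replicates 2 and 3 only, at 9.50 and 12.3-fold.

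KDM3A, which removes repressive methyl groups from histone H3, had 1 shared region inside its span, 270 bp before the RefSeq start that its promoter window uses (chr2:86440488-86441245). Its values were 9.86, 12.1 and 12.2-fold (11.4 ± 1.3), a narrow range. KDM5C, an X-linked demethylase of active histone H3 methylation whose mutations cause intellectual disability, had a region 136 bp upstream of its start (chrX:53225193-53225571), in the gap between KDM5C and the far end of IQSEC2. It measured 14.1-fold in replicate 1, 9.06-fold in replicate 2 and 6.50-fold in replicate 3 (9.90 ± 3.90), and the highest value was over 2 times the lowest. KDM1A, the demethylase of the CoREST corepressor complex, had no region in any replicate. KDM6B, which removes the Polycomb methyl mark, had a region of replicate 3 only (6.48-fold, 2.78 kb inside the gene).

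Of the chromatin regulator genes, KDM5C, KDM3A and BRD3 had their own promoter window overlap a region of all 3 replicates, and these 3 windows are shown for that reason. The window of the lncRNA gene PTPRS-AS1, which overlaps a region of KDM4B, is not shown. Each runs 5′ to 3′ on the strand of its gene from 250 bases before the start to 50 after it (RefSeq, GRCh38.p14), and capitals mark the bases that lie inside the GSX2 region. The windows are chrX:53225158-53225457 (minus strand), chr2:86441121-86441420 (plus strand) and chr9:134067977-134068276 (minus strand).
KDM5C: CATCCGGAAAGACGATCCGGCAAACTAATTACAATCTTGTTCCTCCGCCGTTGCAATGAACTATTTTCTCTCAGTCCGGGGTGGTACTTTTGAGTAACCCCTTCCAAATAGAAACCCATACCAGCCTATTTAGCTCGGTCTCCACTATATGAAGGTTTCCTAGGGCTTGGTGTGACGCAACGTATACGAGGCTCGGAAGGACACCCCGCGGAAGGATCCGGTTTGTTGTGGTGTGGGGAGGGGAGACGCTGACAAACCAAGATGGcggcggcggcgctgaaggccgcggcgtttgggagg
KDM3A: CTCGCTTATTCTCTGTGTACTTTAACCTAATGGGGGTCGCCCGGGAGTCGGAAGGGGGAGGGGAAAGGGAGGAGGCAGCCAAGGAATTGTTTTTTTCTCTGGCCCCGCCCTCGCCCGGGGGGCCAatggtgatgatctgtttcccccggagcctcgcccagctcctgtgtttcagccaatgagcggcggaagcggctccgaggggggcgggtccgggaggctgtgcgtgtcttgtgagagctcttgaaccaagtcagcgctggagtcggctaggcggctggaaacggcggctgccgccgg
BRD3: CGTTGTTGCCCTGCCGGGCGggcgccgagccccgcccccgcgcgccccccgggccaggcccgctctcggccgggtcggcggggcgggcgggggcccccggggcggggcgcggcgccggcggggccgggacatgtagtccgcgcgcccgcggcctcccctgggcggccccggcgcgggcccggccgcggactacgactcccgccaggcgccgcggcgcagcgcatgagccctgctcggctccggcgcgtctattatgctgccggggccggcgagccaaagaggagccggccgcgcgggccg
The region covered 265 of the 300 bases in KDM5C, 125 in KDM3A and 20 in BRD3. Homeodomain proteins commonly bind sites with the letters TAAT. A common longer form, TAATTA, is its own reverse complement and holds the shorter word on each strand. The longer form was found once in the KDM5C window, at bases 26 to 31 counted from the 5′ end, inside the region and with its first base 89 bp from the region's summit. The KDM3A and BRD3 windows do not hold it. The letters TAAT on either strand, with overlaps counted, occurred at 2 positions in KDM5C, both within the longer form, and once each in KDM3A, at base 28 inside the region, and in BRD3, at base 251 outside it. For comparison, of the 85 promoter windows of chromatin regulator genes 2.35% hold TAATTA and 31.8% hold TAAT. Among 15812 protein-coding promoter windows, 3.35% hold TAATTA and 41.9% hold TAAT. GC content was 54.3% in KDM5C, 64.0% in KDM3A and 85.0% in BRD3, against a median of 62.7%. A match describes the letters and does not show that the protein binds there.

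Among the KMT and SETD genes, KMT2E stood apart by its number of regions. KMT2E, a SET-domain gene of the MLL family linked to a neurodevelopmental disorder, had 5 regions, 3 of them of all replicates. It was the only 1 of 8 KMT genes with a shared region (12.5%), beside 12.5% of all protein-coding genes. The strongest lay inside the gene 1.56 kb from its start (chr7:105015588-105016011) at 18.7, 12.7 and 11.9-fold in replicates 1, 2 and 3 (14.4 ± 3.7). One 32.6 kb upstream (chr7:104981378-104981748) gave 9.18, 7.64 and 10.5-fold (9.12 ± 1.44), within 1 kb of an end of the lncRNA gene LINC01004. One 48.3 kb inside the gene (chr7:105062227-105062691) gave 8.97, 9.44 and 9.14-fold (9.18 ± 0.24). All 3 values of the region near the start were above all values of both others. KMT2A, the founding MLL methyltransferase gene, had a region of replicate 1 only (5.20-fold).

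Of 12 SETD genes, SETD5, SETDB2 and SETDB2-PHF11 had a shared region. SETD5, a SET-domain gene mutated in intellectual disability, had one 7.42 kb inside the gene (chr3:9404704-9405260) at 9.66, 11.0 and 8.91-fold (9.84 ± 1.04). The region of SETDB2 lay 739 bp inside the gene (chr13:49444804-49445315) at 4.15, 6.10 and 5.97-fold (5.41 ± 1.09), where the neighbouring gene CAB39L also has an end within 1 kb. It was among the weakest shared regions of the series, at rank 3490 of 3537.

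Acetyl writers and erasers had shared regions at 1 of 8 KAT genes (12.5%) and 2 of 11 HDAC genes (18.2%), near the 12.5% of all protein-coding genes. Among the KAT genes it was KAT6A, a MYST-family acetyltransferase gene, with a region 1.26 kb inside one end of its span (chr8:42050563-42050849), at 5.35, 7.92 and 10.9-fold (8.07 ± 2.79). Replicate 1 was lowest there, while at KDM5C it was highest, so no replicate was high throughout. KAT2B, an acetyltransferase gene of the GCN5 family, had 3 regions, all inside its span and none shared. Of these, 2 were held by replicates 1 and 2, at 9.31 and 8.95-fold on average. The other, 939 bp inside its start, was held by replicate 3 only, at 5.83-fold. The 2 HDAC genes were HDAC4 and HDAC9, both of class IIa. That of HDAC4 lay 107 kb upstream of its span (chr2:239508388-239508699) at 9.27, 7.75 and 9.61-fold (8.88 ± 0.99). That of HDAC9 lay deep inside its 916 kb span (chr7:18720240-18720473) at 7.49, 5.75 and 5.84-fold (6.36 ± 0.98), and its rank was 3261. HDAC1 and HDAC2, the deacetylases of the NuRD, SIN3 and CoREST corepressor complexes, had no region in any replicate.

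Among the 9 BRD genes, BRD1 and BRD3 had shared regions (22.2%), against 12.5% of all protein-coding genes. BRD1, a scaffold of MYST acetyltransferase complexes, was the nearest protein-coding gene to 2 distant shared regions. Both lay in the lncRNA gene MIR3667HG, a host gene of a microRNA. The one 297 kb from BRD1 (chr22:49476152-49476524) measured 8.94, 16.7 and 11.1-fold (12.3 ± 4.0) and the one 145 kb from it (chr22:49628503-49629118) 9.62, 7.36 and 9.44-fold (8.80 ± 1.26). Their ranges overlap. BRD3, a BET-family reader of acetylated histones, had a region whose summit fell 16 bp inside its upstream end (chr9:134068257-134068699) at 6.36, 8.91 and 8.66-fold (7.98 ± 1.41).

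ARID genes had the highest share of members with a shared region of the 9 classes, 6 of 10, and 9 of 10 had a region of any replicate. Over all protein-coding genes these shares were 12.5% and 33.1%. The ARID median territory of 98.5 kb was above that of all 100 genes, and with 10 genes the share was not tested against the other classes. Of the 6 genes, ARID1B, ARID2 and ARID5B had territories of 1134, 329 and 306 kb. At 200 kb and over, 40.6% of the other genes had a shared region. ARID4B, ARID3A and ARID3C had territories of 164, 56.1 and 13.1 kb. ARID5B, whose DNA-binding product recruits a histone demethylase, had 2 shared regions near its 2 ends. The one 1.21 kb inside its far end (chr10:62095624-62095907) measured 10.4, 14.9 and 12.1-fold (12.5 ± 2.3) and the one 2.76 kb inside its start (chr10:61904177-61905169) 6.87, 7.84 and 9.41-fold (8.04 ± 1.28). All values at the far end were above all values at the start.

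Of the ARID genes of the BAF and PBAF remodellers, ARID2 and ARID1B had a shared region and ARID1A did not. The ARID2 region lay 15.4 kb from the span (chr12:45714101-45714446) at 9.37, 13.5 and 8.44-fold (10.4 ± 2.7). ARID1B had 10 regions, the most of the set, in a territory of 1134 kb, and 8 of these were seen in 1 replicate only. Its shared region lay 191 kb inside the gene (chr6:156967246-156967523) at 8.94, 9.86 and 8.10-fold (8.97 ± 0.88). ARID1A had 2 regions, both of replicate 3 only. ARID3A, a DNA-binding gene of the family, had a region 19.0 kb inside (chr19:956642-957173) with 9.31, 9.61 and 10.1-fold (9.68 ± 0.42), and ARID3C and ARID4B had 1 each at 7.28 ± 1.91 and 6.59 ± 1.66.

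CHD genes, which apart from CHD9NB encode chromodomain remodellers and a related ATPase, had 5 shared regions at 4 of 11 genes (36.4%). Over all protein-coding genes the share with a shared region was 12.5%. The CHD median territory was 254 kb, and at 200 kb and over 40.6% of the other genes had a shared region. Of the 5 CHD regions, 4 lay outside the spans. Both shared regions of CHD2, an epilepsy gene, lay upstream of it within CHASERR, a lncRNA gene whose transcript is known to restrain CHD2 expression. The nearer, 3.95 kb upstream (chr15:92896219-92896741), gave 16.4, 13.8 and 11.3-fold (13.9 ± 2.5). The farther, 13.5 kb upstream (chr15:92886486-92887044), gave 13.4, 7.37 and 6.85-fold (9.20 ± 3.63), so their ranges overlap, and in each replicate the nearer was higher. Another region in CHASERR, 16.4 kb upstream of CHD2, was held by replicates 1 and 3. The remaining 3 of the 6 regions of CHD2 had 1 replicate each. They lay 4.52 and 29.9 kb inside the gene and 103 kb upstream of it.

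**Figure D3:**
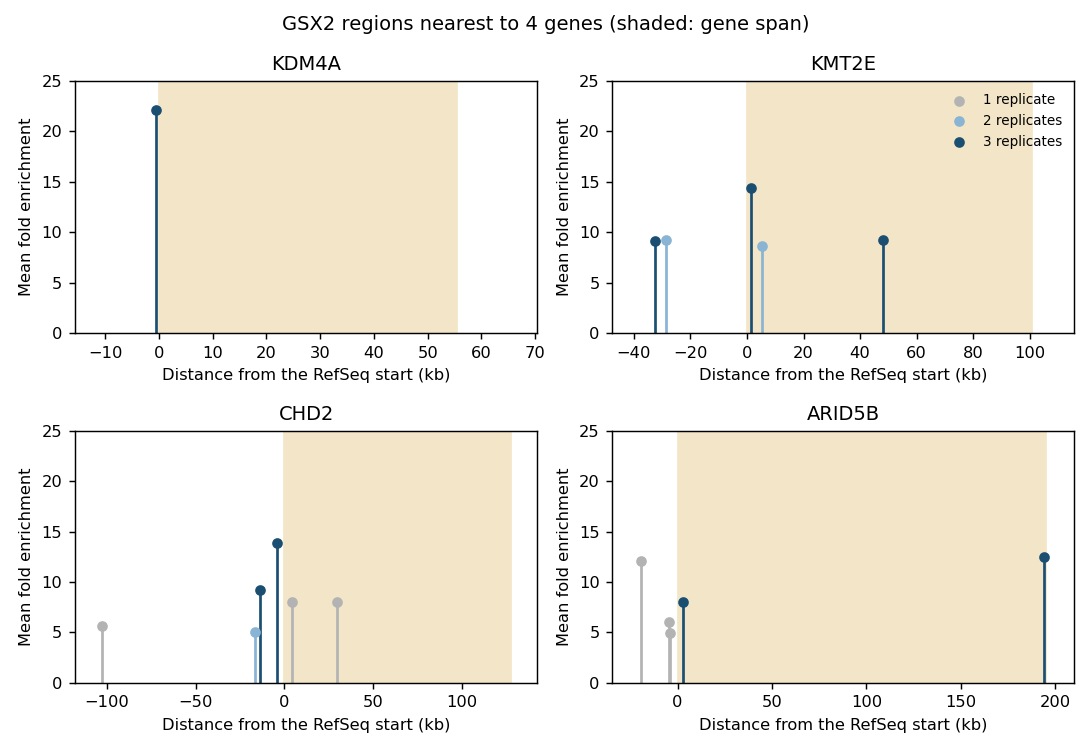
Mean fold enrichment (y axis, linear, over the replicates that hold a region) of each GSX2 region nearest to KDM4A, KMT2E, CHD2 and ARID5B against its distance from the RefSeq start (x axis, kb, negative upstream); shading marks the gene span and colour the number of replicates. The shared regions of CHD2 lie upstream of the gene, those of ARID5B inside it near its ends, and KDM4A has 1 region beside its start.

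CHD6 had a region 75.1 kb outside its span (chr20:41693279-41693673) at 11.1, 15.0 and 8.69-fold (11.6 ± 3.2). CHD1 was the nearest gene to one 499 kb away (chr5:99427520-99427821) at 10.8, 8.08 and 5.51-fold (8.12 ± 2.63). A region 482.7 kb from CHD1 was stronger, 14.0-fold in replicate 1 and 13.0-fold in replicate 3, but had no peak in replicate 2. The region inside CHD9 (4.77 ± 0.10) was the weakest of the 28. CHD7, mutated in CHARGE syndrome, and CHD8, an autism gene, had no region in any replicate.

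None of the 13 SMARC genes, which encode ATPases and subunits of BAF and related remodellers, had a region of all 3 replicates. Over all protein-coding genes the share with one was 12.5%. The SMARC median territory was 73.3 kb, and at 50 to 100 kb the share of the other genes was 7.42%. SMARCA2, SMARCA1, SMARCAD1 and SMARCC1 had longer territories of 871, 782, 276 and 210 kb. At 200 kb and over, 40.6% of the other genes had a shared region. SMARCA4 had a territory of 130 kb, and at 100 to 200 kb the share of the other genes was 16.2%. Regions of 2 replicates lay nearest to 3 of them. That of SMARCD2, a BAF subunit gene, lay 83 bp upstream of its start (8.79-fold in replicate 2 and 7.04-fold in replicate 3). That of SMARCAD1 lay 424 bp upstream of its start (8.88-fold in replicate 1 and 6.64-fold in replicate 2). That of SMARCA5, the ATPase gene of ISWI complexes, lay 1.68 kb inside (7.04-fold in replicate 2 and 8.53-fold in replicate 3). SMARCA2 and SMARCA1 had regions of 1 replicate each time. SMARCA4, the BAF ATPase gene, and SMARCC1, a BAF core subunit gene, had none in any replicate. The class has 2.70 Mb of the 16.4 Mb of territory of the 100 genes, and its lack of a shared region was not tested.

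**Figure D4:**
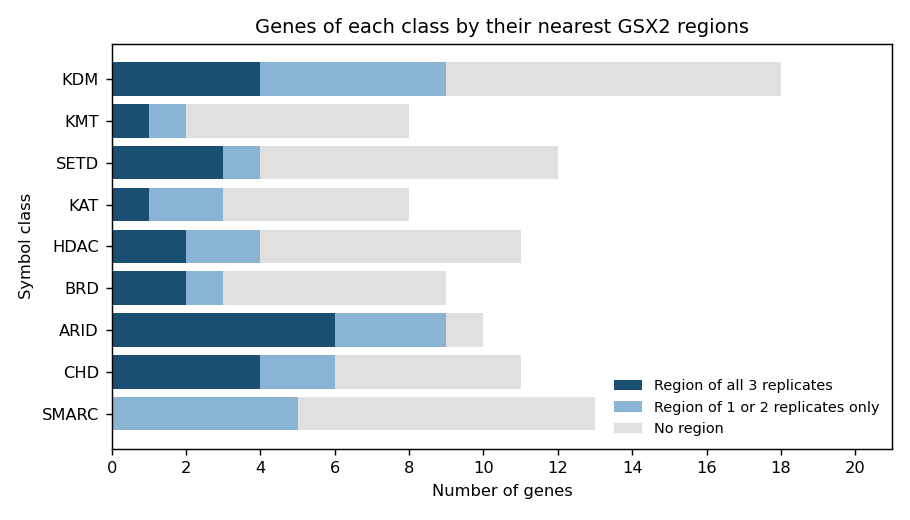
Number of genes (x axis) in each symbol class (y axis), split into genes nearest to a GSX2 region of all 3 replicates, genes with regions of 1 or 2 replicates only and genes with none. ARID has 6 of 10 genes in the first group and SMARC 0 of 13. Over all protein-coding genes, 12.5% had a region of all 3 replicates, and no class was tested.

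A gene end was within 1 kb of the summit at 4 of the 28 shared regions (14.3%, 95% Wilson interval 5.70 to 31.5%), against 7.32% of the shared regions of the other genes, a share inside that interval. They are the regions of KDM4A, SETDB2, BRD3 and KDM5C, and all 4 are at the RefSeq start side of the gene. Counted by genes, 5 of 100 had such a region, SETDB2-PHF11 included, against 1.34% of all protein-coding genes. SETDB2 at 739 bp was the last inside the limit, and ARID5B at 1206 bp, KAT6A at 1265 bp and KMT2E at 1560 bp were the first outside it. Summits lay inside the gene span at 16 of 28 regions (57.1%, 39.1 to 73.5%), against 51.2%. Of the 12 outside, 6 had their summit in a lncRNA gene. The matching share was not computed for the other genes, so these 6 cannot be called particular to the set.

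Over single replicates, 6 of 69, 9 of 55 and 8 of 63 peaks of chromatin regulator genes were within 1 kb of an end. These shares of 8.70, 16.4 and 12.7% (12.6 ± 3.8, SD, n = 3) stood beside 8.77, 8.05 and 8.36% (8.39 ± 0.36) for the other genes. In replicate 1 the 2 shares were nearly equal, and the mean difference of 4.19 ± 4.20 percentage points was no larger than its SD (exact two-sided sign-flip permutation over 3 replicates, p = 0.5, where 0.25 is the smallest possible). At the wider window of 5 kb the sets parted in every replicate, with 29.0, 38.2 and 34.9% against 19.1, 18.7 and 19.0%, a difference of 15.1 ± 4.8 points (exact permutation p = 0.25, the smallest possible). They also parted in every replicate at 2 kb (15.9, 29.1 and 23.8% against 12.8, 11.7 and 12.6%) and at 10 kb (36.2, 43.6 and 41.3% against 25.7, 24.9 and 25.5%). At 0.5 kb replicate 1 went the other way, with 4.35% against 5.67%. At 5 kb, 11 of the 28 shared regions were counted (39.3%, 23.6 to 57.6%) against 18.6% of those of the other genes. The 7 between 1 and 5 kb are 2 of ARID5B and 1 each of KAT6A, KMT2E, CHD2, ARID3C and KDM3A. The same genes enter in each replicate, so agreement between replicates is not a check over genes.

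**Figure D5:**
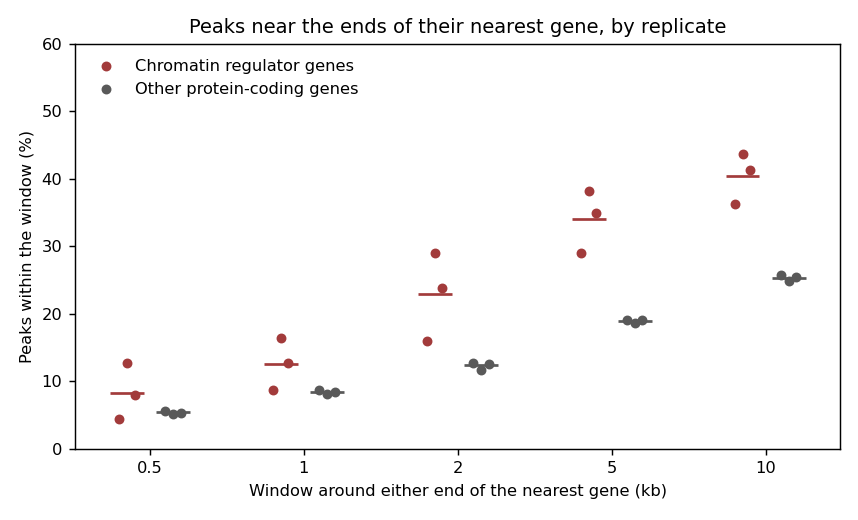
Share of peaks (y axis, %) whose summit lies within a window around either end of the nearest gene (x axis, window in kb), with 1 point per replicate and a line at the mean of 3. At 1 kb replicate 1 of the chromatin regulator genes (8.70%) sits among the other genes, and at 5 kb its 3 points (29.0 to 38.2%) are above all points of the other genes (18.7 to 19.1%).

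Genes of partner complexes, in 8 lists with 129 genes that all matched, had a shared region at 24 genes (18.6%), against 12.5% of all protein-coding genes. The Polycomb list, whose complexes silence developmental genes, had 9 of 28, led by ASXL2 (19.3, 16.4 and 22.0-fold, 19.2 ± 2.8, 1.05 kb inside the gene) and ASXL1 (16.4 ± 1.6, 39.8 kb inside), which activate the BAP1 deubiquitinase. Corepressor complexes had 7 of 24, led by the CoREST scaffold genes RCOR3 (14.1 ± 2.8, inside) and RCOR1 (13.4 ± 1.4, 531 bp outside one end). BAF subunits outside the SMARC and ARID classes had 2 of 16, PBRM1 (11.6 ± 0.8) and BICRAL (9.84 ± 0.55), both inside the gene. Other methyl writers and their partners had 4 of 19, led by RBBP5, a core subunit of the MLL complexes (6.22, 14.5 and 8.81-fold, 9.86 ± 4.26, 322 bp outside one end), and SMYD3 (8.78 ± 2.16). Other acetyl writers and readers had 1 of 16, the coactivator gene NCOA2 (10.5 ± 1.3), and genes of DNA methylation 1 of 11, TET1, which oxidises methylcytosine (10.4 ± 1.9). Among 8 other remodellers and 7 sirtuins, 0 had a shared region. The lists differ in median territory, which was 56.3 kb over all protein-coding genes. It was 70.7 kb for Polycomb, 108 kb for corepressor complexes, 71.0 kb for BAF subunits and 58.5 kb for other methyl writers and partners. For other acetyl writers and readers it was 112 kb, for DNA methylation 81.6 kb, for other remodellers 154 kb and for sirtuins 21.9 kb. Differences between the lists were not tested.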

How the data were processed

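Reads were processed to build hg38 by a workflow that names MACS3, Bowtie2, Trim Galore, SAMtools and deepTools, per the submitters' processing notes, and no version or setting was found. Each ChIP replicate has its own peak list, deposited by the authors. Column values in the deposited lists are the fold enrichment (a linear ratio to the local background), the −log10 of p and of q, and a score of 10 times −log10 q, which was not used. The smallest −log10 q was 3.0. Lines sharing an interval were reduced to the summit of highest fold enrichment.

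Genes and promoter windows came from RefSeq tables (GRCh38.p14). Python 3.11.15 assigned each summit to the nearest protein-coding span, counting every span that holds it. Member intervals were merged at 1 bp overlap, and regions with peaks from all 3 replicates were called shared. Values are the mean and SD over 3 replicates. RefSeq starts were known for 85 of the 100 genes. Symbols on chromosome Y were left out. Wilson intervals cover counting error only, and regions are not replicates.

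The gene set, the partner lists and the rules were chosen with earlier results of these data known. Genes named were 11 taken whatever their values, the 3 strongest of each class, all with a shared region within 1 kb of an end, all with 3 or more shared regions, and the 2 strongest of each partner list. CHD9, ARID3C, ARID4B, SMARCD2, SMARCAD1, SMARCA5, SMARCA2, SMARCA1, KAT2B, CHD9NB and BRD3OS were named after their values were seen. The territory classes were also chosen then. The steps recovered 89 of 89 regions planted in simulated data. These were planted in all 3 lists, inside member genes without an equally near gene. Recovery of regions outside the spans or tied between genes was not checked.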

Additional observations from a re-analysis of the deposited data

How the results depend on the processing

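Alternatives changed the threshold, the overlap, the number of replicates, the assignment and the window. The 23 genes became 12 and the 28 shared regions 16 with a −log10 q of at least 10, and the median fold enrichment of shared regions 10.9, since weak peaks are dropped. With regions of at least 2 replicates the number of regions was 50 and their median 8.26. Without 1 replicate in turn the genes were 25 to 26, the regions 35 to 37 and the median 8.52 to 8.95, since a shared region then needs 2 peaks. The share of shared regions at gene ends was 39.3% with a window of 5 kb, 7.14% with one of 0.5 kb, 6.25% with a −log10 q of at least 10, and 10.8 to 17.1% without 1 replicate in turn. Over regions of replicates 1 and 3 the strongest region of CHD1 was 13.5-fold. The 1 shared KAT gene became 2 without replicate 1 and without replicate 3, and SMARC genes with a shared region became 2 without replicate 1 and 1 without replicate 3. Class counts fell with a −log10 q of at least 10. KAT and HDAC genes with a shared region then became 0, BRD and SETD genes 1 each and CHD genes 2. ARID genes became 4 and KDM genes 3, while KMT stayed at 1. SETD genes were already 1 with a −log10 q of at least 5. With regions within 100 kb only, there were 20 genes and 24 regions. BRD and HDAC genes with a shared region then became 1 each and CHD genes 3. With KDM4C included there were 24 genes and 30 regions. The mean difference over replicates in the share at gene ends was positive under every alternative run, from 2.95 points at 0.5 kb to 15.1 points at 5 kb. Replicate 1 alone was below the other genes at 0.5 kb (4.35 against 5.67%) and at 1 kb (8.70 against 8.77%). With RefSeq starts alone, an alternative added after seeing the data, the mean difference was 5.01 ± 2.62 points. There, 5 of 24 shared regions (20.8%) were near a start against 6.46% for the other genes, KDM3A being the addition. No paired analysis was possible because the input samples that share the replicate numbers have no values here and there is 1 group.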
